A study of Rattus norvegicus with 6 samples.

Results

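The subunits of oxidative phosphorylation were examined in primary rat brain microvascular endothelial cells (rBMECs) treated with homocysteine (Hcy), a sulfur amino acid of the methionine cycle, or with vehicle (Veh). Members were all rows of the deposited gene count table named as subunits of complexes I to V (Nduf, Sdha to Sdhd, Uqcr, Cox4 to Cox8 and Atp5 names), together with the protein-coding genes of the mitochondrial chromosome. This gave 111 of the 33566 rows, of which 98 were nuclear and 13 mitochondrial. Of the nuclear rows, 89 were subunits and 9 were complex I assembly factors (Ndufaf1 to Ndufaf8) or the ATP synthase inhibitor Atp5if1, which the name patterns also take in. Cells came from cortices of Sprague-Dawley rats aged 18 to 22 days and were used after a single passage, and the labels give no genotype other than the strain. The Hcy group (Hcy1 to Hcy3) received 100 µM Hcy for 24 h and the Veh group (Veh1 to Veh3) received the water in which Hcy was dissolved. The treatment label gives 100 µM, while the protocol also mentions a prepared solution of 50 µM. The design text calls the 3 libraries per group biological replicates, but no label says which animals or isolations each came from.

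Oxidative phosphorylation passes electrons from NADH and succinate through complexes I to IV of the inner mitochondrial membrane to oxygen, and complex V (ATP synthase) uses the resulting proton gradient to make ATP. Complexes I, III, IV and V are built from subunits of both genomes, whereas complex II is entirely nuclear. Mitochondrial mRNAs are cut from long transcripts read from each strand of one circular chromosome, and nuclear subunit genes are transcribed singly, many from promoters with sites for NRF1, GABP (an ETS factor), ERR or YY1. Brain endothelium is known for a high content of mitochondria relative to other endothelium.

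Libraries held 14024997 to 16764584 counts, and 14603 genes had at least 10 counts summed over the 6 libraries and were tested with edgeR. With Benjamini-Hochberg adjustment, 341 genes (2.34%) passed p at 0.05, and 71 genes (0.486%) passed it with a change of 1 or more log2 units in either direction. The general endothelial markers were abundant, summing to 9456 to 9902 CPM (counts scaled to library depth) in Hcy and 7825 to 9044 CPM in Veh over 11 tested genes, but the brain endothelial tight junction gene Cldn5 was listed at 0 in every library. The paper shows Claudin-5 protein in rBMECs by Western blot, and why the Cldn5 row held no counts was not tested. All 5 tested brain endothelial markers had lower estimates in Hcy (median log2 fold change -0.32, none passing the adjusted p and 3 the unadjusted p, which 13.4% of all genes passed), and summed to 531 to 596 CPM in Hcy and 673 to 705 CPM in Veh. The general endothelial list had 8 of 11 genes with higher estimates, none passing the adjusted p and 5 the unadjusted p. Of the 4 smooth muscle markers, Acta2, Tagln and Cnn1 fell with Hcy (adjusted p of 0.0248, 0.000801 and 0.00177 by edgeR, 0.0816 to 0.146 for Acta2 without Hcy1, Hcy2, Hcy3 or Veh1), and the list summed to 673 to 702 CPM in Hcy against 1120 to 1348 CPM in Veh. Fibroblast markers summed to 35.7 to 57.8 CPM in Hcy and 57.5 to 83.9 CPM in Veh, oligodendrocyte markers to 10.6 to 12.2 and 11.2 to 11.3 CPM, neuronal markers to 6.85 to 9.77 and 5.22 to 7.18 CPM, and pericyte markers to 4.00 to 6.18 and 2.85 to 4.01 CPM. Most of the fibroblast sum was Col1a1 (34.2 to 55.6 CPM in Hcy), while Dcn and Lum had at most 4 and 5 counts in any library. Most of the oligodendrocyte sum was Mog (9.47 to 10.4 CPM in Hcy), while Olig2 had at most 1 count and Mbp at most 0.672 CPM. Astrocyte, microglial and epithelial markers each summed to at most 2.01 CPM. In these lists Aqp4 and Slc1a2 (2 of 5 astrocyte markers), Cx3cr1 and P2ry12 (2 of 6 microglial markers) and Rbfox3 and Snap25 (2 of 4 neuronal markers) were at 0 in every library. Whether the cells behind any of these markers have a part in the values below was not tested. In bulk RNA, fewer cells of a type and less RNA per cell cannot be told apart.

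Of the 111 members, 101 had enough counts to be tested, namely 79 nuclear subunit rows, the 9 assembly or regulatory genes and all 13 mitochondrial genes. No member was called by the adjusted p of at most 0.05, alone or with the fold threshold, and the smallest adjusted p was 0.0932 (Mt-nd4, edgeR). By the unadjusted p of at most 0.05, 5 of 101 members (4.95%) passed, against those 13.4% of all genes tested. These were 4 of the 13 mitochondrial genes (30.8%) and 1 of the 79 nuclear subunit rows (1.27%), and the difference between these classes was not tested. DESeq2 called 1 of the 101 members by its adjusted p, Mt-nd4, against 604 of 14603 genes (4.14%). The 3 Hcy libraries lay below all 3 Veh libraries for 5 members (4.95%, against 9.27% of all genes), which were Ndufaf1, Mt-nd1, Mt-co3, Ndufb8 and Ndufb9. They lay above all Veh libraries for 2 members, Mt-nd4 and Sdha (1.98%, against 10.8% of all genes). The fold changes of 51 of the 101 members were within 0.1 of 0 on the log2 scale. Among the larger estimates were those of Ndufa12 and Atp5pb, given below.

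The untested members were mostly subunit forms of other tissues. Cox8c, Cox7b2, the Ndufa10l1 row on chromosome 6 and the pseudogene Cox6c-ps1 had 0 counts in every library. Cox6a2 and Cox8b, the heart and muscle forms of subunits 6A and 8, had at most 1 and 2 counts in any library, as had Cox6b2, the testis form of subunit 6B, and Ndufa4l2, a hypoxia-induced relative of Ndufa4, with at most 2. The row named Ndufs6, a processed pseudogene, had at most 1 count. Cox4i2, the oxygen-responsive form of subunit 4, had 0, 1 and 1 counts in Hcy1 to Hcy3 and 1, 0 and 6 in Veh1 to Veh3. All of these but Cox4i2 were at or below the floor of 3 counts in every library, a level of 0.179 to 0.214 CPM. None of them, Cox4i2 included, reached the minimum of 10 counts summed over the 6 libraries, so no fold change was computed. The floor covers counting error only.

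Transcript levels were compared between genes per listed length, as TPM, computed here from the counts. Summed over genes, the 13 mitochondrial genes held 61114, 66435 and 66190 TPM in Hcy1 to Hcy3 and 63141, 69469 and 71202 TPM in Veh1 to Veh3. The nuclear subunit rows, without the 9 assembly or regulatory genes, together held 20818 to 22007 TPM in Hcy and 20600 to 24710 TPM in Veh. The mitochondrial sum was thus 2.78, 3.19 and 3.09 times this nuclear subunit sum in Hcy and 3.03, 3.37 and 2.88 times in Veh. The groups overlapped (exact permutation test, two-sided p = 0.8, a test that cannot go below 0.1 with 3 against 3 libraries and so cannot decide on a difference). Poly(A) selection precedes these libraries, so the levels of mitochondrial mRNAs with short tails may not compare directly with nuclear mRNAs, which was not tested.

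Among nuclear subunits, the highest mean level per length within each complex belonged to Ndufb8 of complex I (347 TPM), Sdhc, a membrane anchor of complex II (248 TPM), Uqcrh, the hinge protein of complex III (613 TPM), Cox6a1 of complex IV (928 TPM) and Atp5f1b, the catalytic beta subunit of ATP synthase (1193 TPM). The median level over the tested nuclear subunits was 147 TPM in complex I, 189 TPM in complex II, 208 TPM in complex III, 391 TPM in complex V and 439 TPM in complex IV. These levels depend on the listed lengths and on how reads of near-identical copies were assigned.

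The promoters of the subunit genes were searched for the known motifs of the family, after the nuclear members were seen to vary together across libraries. Other short genes shared much of that variation (below), and whether the motifs have a part in it was not tested. RefSeq promoters (GRCr8, 250 bases before to 50 after the start) were matched by symbol for 67 of the 76 subunit names tested. The NRF1 letters CGCATGCG were in 7 (10.4%, against 1.66% of all 33469 promoters and 3.55% of promoters of tested genes). The ETS letters CCGGAAG were in 20 (29.9%, against 8.75% and 17.4%), the YY1 letters AAGATGGCG in 9 (13.4%, against 1.73% and 3.74%) and the ERR letters TCAAGGTCA in 2 (2.99%, against 0.433% and 0.244%). Any of the 4 was in 30 (44.8%, against 11.8% and 22.9%). Both strands were read, and matches of different motifs did not overlap in any of these promoters. A match is a description of letters, not of a bound site. The median log2 fold change of genes with and without the letters was -0.083 (7 genes) and -0.083 (60 genes) for NRF1, -0.054 (20) and -0.087 (47) for ETS, -0.15 (9) and -0.076 (58) for YY1, and -0.013 (2) and -0.087 (65) for ERR, and none of these differences was tested. The 3 promoters printed here carried matches of at least 2 different motifs in the 200 bases from 170 before to 30 after the start, with the matched letters in capitals, 5′ to 3′ along the gene. Atp5pf encodes coupling factor 6 of the ATP synthase stalk, Atp5me its membrane subunit e, and Uqcrc1 a core protein of complex III.
Atp5pf (chr11:37375072-37375271, minus strand; NRF1, YY1 and ETS letters): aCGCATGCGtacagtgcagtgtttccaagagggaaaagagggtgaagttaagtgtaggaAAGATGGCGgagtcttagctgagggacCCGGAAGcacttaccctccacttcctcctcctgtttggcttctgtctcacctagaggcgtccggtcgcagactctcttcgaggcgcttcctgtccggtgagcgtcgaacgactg
Uqcrc1 (chr8:118468053-118468252, plus strand; NRF1 and YY1 letters): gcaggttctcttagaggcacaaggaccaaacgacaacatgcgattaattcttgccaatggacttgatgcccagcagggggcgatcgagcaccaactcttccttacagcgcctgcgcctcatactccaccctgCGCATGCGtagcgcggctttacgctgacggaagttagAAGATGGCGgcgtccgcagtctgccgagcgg
Atp5me (chr14:1464690-1464889, plus strand; NRF1 letters and the reverse complement of the ETS letters): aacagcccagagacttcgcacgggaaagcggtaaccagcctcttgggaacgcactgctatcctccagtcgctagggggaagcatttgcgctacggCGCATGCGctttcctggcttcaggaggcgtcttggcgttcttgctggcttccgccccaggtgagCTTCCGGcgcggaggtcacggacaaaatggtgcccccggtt
The CPM of these genes are set out per library for reference. Atp5pf was at 139, 126 and 125 CPM in Hcy and 124, 113 and 162 CPM in Veh. Uqcrc1 was at 219, 192 and 195 CPM in Hcy and 198, 189 and 254 CPM in Veh. Atp5me was at 20.4, 20.8 and 19.3 CPM in Hcy and 19.0, 18.1 and 24.6 CPM in Veh. In all of them Veh3 was the highest library and Veh2 the lowest.

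Veh3 stood apart for the whole family. It was the highest of the 6 libraries for 68 of the 79 nuclear subunit rows (86.1%) and for 11 of the 13 mitochondrial genes (84.6%), against 25.6% of all genes tested. Taken as log2 CPM minus the mean of the 6 libraries, the median nuclear subunit was 0.33 higher in Veh3 and between -0.11 and 0.029 in the other 5 libraries. The median mitochondrial gene was 0.26 higher in Veh3. The median over all genes tested was 0.0022 in Veh3. The Veh3 median was alike across complexes I, III, IV and V (0.34, 0.32, 0.35 and 0.32) and was 0.16 for the 4 genes of complex II. The nuclear subunits not highest in Veh3 were Ndufa1, Ndufa12, Ndufs1, the chromosome 13 row of Ndufv3, Sdha, Uqcrc2, Cox5b, Cox7a1, Atp5f1a, Atp5md and Atp5pb.

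**Figure D1:**
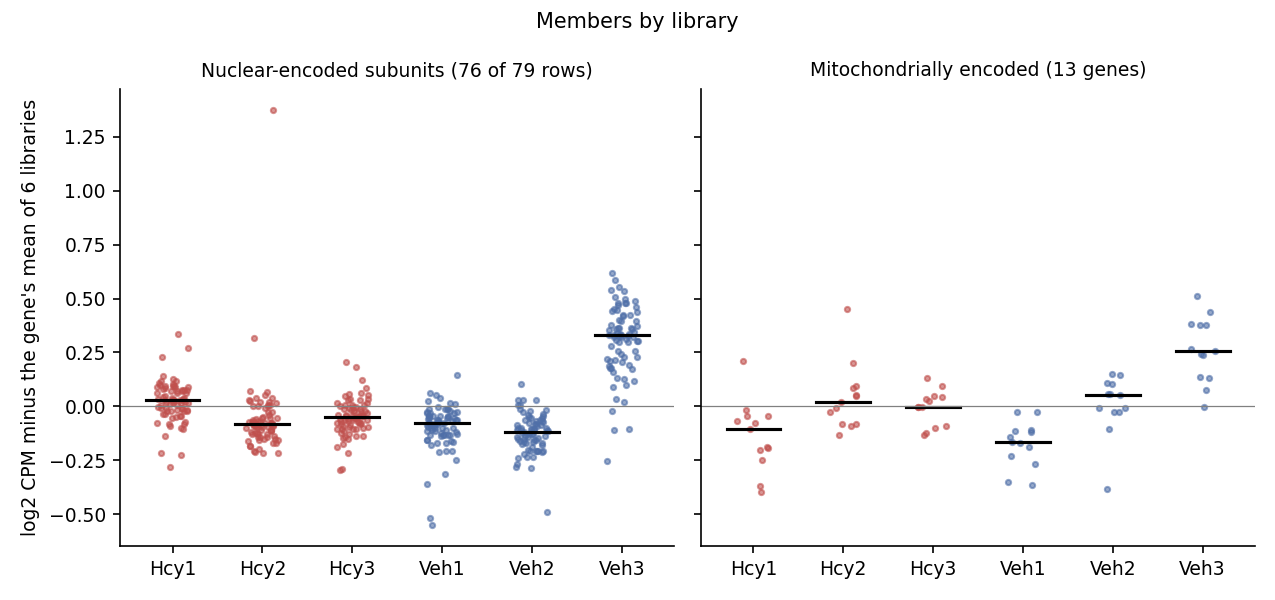
Log2 CPM of each member minus its mean over the 6 libraries, for 76 of the 79 tested nuclear subunit rows (left, without Ndufa1, Atp5pb and Cox7a1, whose values run off the scale) and the 13 mitochondrial genes (right). Each point is a gene and each bar the median of those drawn, and the points of Veh3 lie above those of the other 5 libraries for most genes.

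Listed gene length moved with the Veh3 values. The median listed length was 705 bases for the 79 nuclear subunits and 2525 bases for 7926 other protein-coding genes with a mean above 10 CPM. Among those other genes, the median Veh3 deviation was 0.30 for 256 genes of up to 700 bases, 0.18 for 1293 genes of 700 to 1500 bases, 0.042 for 3261 genes of 1500 to 3000 bases and -0.10 for 3116 longer genes. In the same length classes, the nuclear subunits were at 0.36 (38 rows), 0.33 (27 rows) and 0.16 (13 rows). Subunits up to 700 bases were thus close to other genes of that length, and those in the next 2 classes lay above them. The difference within a length class was not tested, and the part of length, RNA quality or fragment selection in the Veh3 values was not tested.

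Leaving out Veh3 turned the direction of the family. With all 6 libraries, 60 of the 79 nuclear subunits were lower in Hcy (75.9%, against 53.1% of all genes), with a median log2 fold change of -0.079 against -0.015 for all genes. Without Veh3, 60 of the 79 were higher in Hcy and the median was 0.079, against -0.0031 for all genes. Other short genes turned as well. The median of the 256 other protein-coding genes of up to 700 bases was -0.070 with all libraries and 0.086 without Veh3, against -0.094 and 0.098 for the 38 subunit rows of that length. From 700 to 1500 bases it was -0.042 and 0.051 for the 1293 other genes, against -0.077 and 0.074 for the 27 subunit rows. The mitochondrial genes went from 10 of 13 lower (median -0.092) to 7 of 13 higher (median 0.021). By the same fit without Veh3, 3 members were called by an adjusted p of at most 0.05 (edgeR), all higher in Hcy: Mt-nd4 (log2 fold change 0.64, adjusted p = 0.00338), Atp5if1 (0.26, adjusted p = 0.0368) and Ndufb3, an accessory subunit of complex I (0.29, adjusted p = 0.0407). These were 2.97% of the 101 members, against 957 of 14352 genes (6.67%) called by that fit. With all 6 libraries the Ndufb3 estimate was -0.064 (adjusted p = 0.942 by edgeR).

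**Figure D2:**
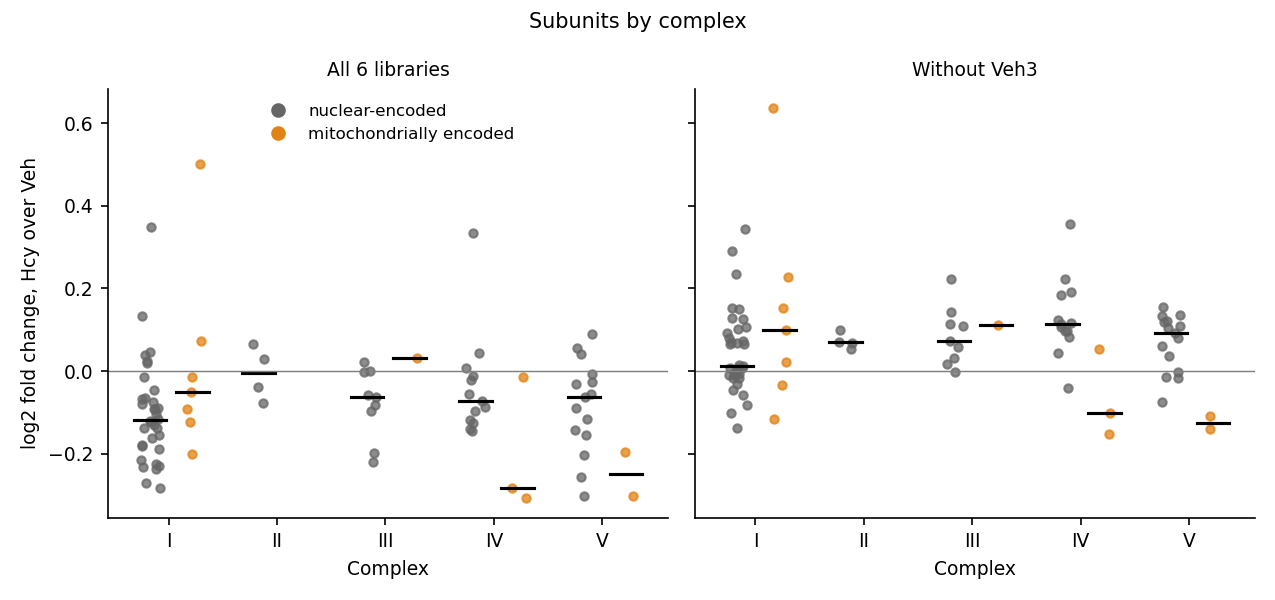
Log2 fold change of Hcy over Veh for subunits of each complex, with all 6 libraries (left) and without Veh3 (right), nuclear in grey and mitochondrial in orange, bars marking the median of the points drawn. Drawn are 75 nuclear rows (without Ndufa1, Ndufa12, Atp5pb and Cox7a1) and 13 mitochondrial genes, and the medians of nuclear complexes I, II, III, IV and V lie below 0 on the left and above 0 on the right.

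The mitochondrial genes took 3.90%, 4.07% and 4.13% of all counts in Hcy1 to Hcy3 and 3.81%, 4.21% and 4.64% in Veh1 to Veh3. The Hcy mean was 0.184 percentage points lower, with overlapping groups (exact permutation test, two-sided p = 0.6). With 3 against 3 libraries this test cannot go below 0.1 and so cannot decide on a difference. Mt-co1, the catalytic core of complex IV, alone took 2.19% to 2.52% of counts. It was measured at 23300, 23183 and 24001 CPM in Hcy and 21839, 23474 and 25833 CPM in Veh, a log2 fold change of -0.013 (95% CI -0.17 to 0.15). Mt-cyb, the only mitochondrial subunit of complex III, was at 4311, 4597 and 4591 CPM in Hcy and 3961, 4362 and 4881 CPM in Veh (log2 fold change 0.032, 95% CI -0.15 to 0.22). For both genes the Veh libraries spanned the Hcy libraries, and the intervals leave out a change of 1 log2 unit in either direction.

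The 4 adjacent genes from Mt-co2 to Mt-co3, at positions 7006 to 9382 of the mitochondrial chromosome as listed, had lower estimates in Hcy, and none passed the adjusted test (edgeR). Mt-co3, a core subunit of complex IV, was at 4179, 4509 and 4351 CPM in Hcy and 4686, 4967 and 6197 CPM in Veh. All Hcy libraries lay below all Veh libraries, and the log2 fold change was -0.28 (SE 0.10, adjusted p = 0.242). Mt-co2, which carries the entry site for electrons from cytochrome c, was at 1760, 1848 and 1898 CPM in Hcy and 1834, 2100 and 2880 CPM in Veh. Its log2 fold change was -0.31 (SE 0.14, adjusted p = 0.405), and Hcy2 and Hcy3 lay above Veh1. Mt-atp6, the proton channel subunit of ATP synthase, was at 1223, 1373 and 1354 CPM in Hcy and 1340, 1561 and 1969 CPM in Veh (log2 fold change -0.30, SE 0.13, adjusted p = 0.338), and Mt-atp8 at 23.3, 30.6 and 31.1 CPM against 27.8, 33.5 and 36.3 CPM (-0.20, adjusted p = 0.622). Hcy2 and Hcy3 overlapped the lowest Veh library for both. Without Veh3 the estimates of these genes were closer to 0 but still negative, at -0.15, -0.10, -0.14 and -0.11 for Mt-co3, Mt-co2, Mt-atp6 and Mt-atp8. Mt-atp8 shares 43 bases with Mt-atp6, so reads across that stretch could be counted for either gene or for neither.

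**Figure D3:**
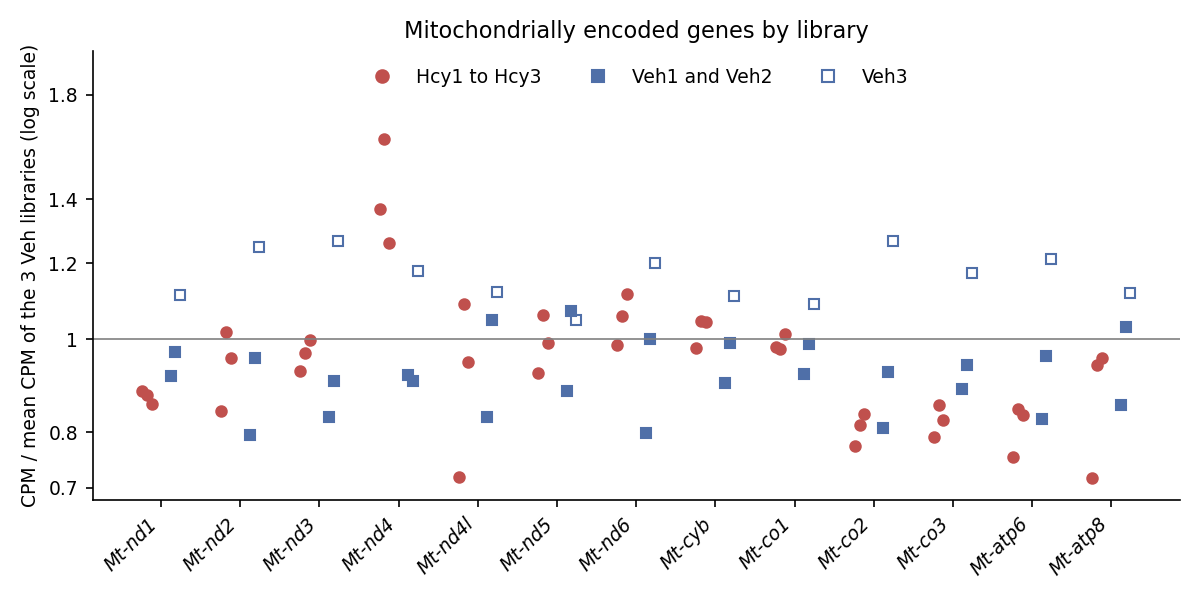
CPM of the 13 mitochondrial genes in each library, divided by the mean of the 3 Veh libraries, on a log scale, with Hcy as circles, Veh1 and Veh2 as filled squares and Veh3 as open squares. Mt-nd4 is the gene whose Hcy libraries all lie above the Veh libraries, and the Hcy libraries of Mt-nd1 and Mt-co3 all lie below them.

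The other mitochondrial genes encode complex I subunits. Mt-nd1, part of the quinone binding site, was at 917, 907 and 888 CPM in Hcy and 951, 1008 and 1156 CPM in Veh. Its groups did not overlap, and its log2 fold change was -0.20 (SE 0.080, adjusted p = 0.312 by edgeR) and -0.12 without Veh3. Mt-nd2 was at 1128, 1364 and 1284 CPM in Hcy and 1067, 1281 and 1676 CPM in Veh (-0.092, adjusted p = 0.863). Mt-nd3 was at 305, 318 and 328 CPM in Hcy and 273, 298 and 416 CPM in Veh (-0.052, adjusted p = 0.927). In both of these genes Veh1 was the lowest and Veh3 the highest library. Mt-nd4l was at 187, 283 and 246 CPM in Hcy and 216, 273 and 292 CPM in Veh (-0.12, adjusted p = 0.814). Mt-nd5 was at 1377, 1582 and 1479 CPM in Hcy and 1318, 1597 and 1565 CPM in Veh (-0.014, adjusted p = 0.971). Mt-nd6, the only one of the 13 listed on the minus strand, was at 311, 333 and 351 CPM in Hcy and 252, 316 and 379 CPM in Veh (0.074, adjusted p = 0.879). These last 3 overlapped between groups. Mt-nd6 shares 23 bases with Mt-nd5 on the other strand, and whether the counting used strand is not given in the sources used here.

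Mt-nd4, a proton-pumping core subunit of complex I, was the member with the smallest p. It was at 261, 309 and 241 CPM in Hcy and 175, 173 and 225 CPM in Veh. All Hcy libraries lay above all Veh libraries, by a log2 fold change of 0.50 (SE 0.13, 95% CI 0.22 to 0.79, unadjusted p = 0.00325, adjusted p = 0.0932 by edgeR). Its level per length, 363 TPM in Hcy and 251 TPM in Veh, was below that of its neighbour Mt-nd4l, with 1486 and 1585 TPM, although both lie on one bicistronic mRNA. An unnamed row on chromosome 20 (positions 19484524 to 19485845, plus strand) carries the same protein match in the deposited annotation. It was at 107, 120 and 260 CPM in Hcy and 238, 361 and 419 CPM in Veh, so Hcy3 lay above Veh1. Its log2 fold change was -1.06 (SE 0.33, adjusted p = 0.172), opposite in direction to Mt-nd4, and without Hcy3 it was -1.58 (adjusted p = 0.0314). With no count minimum the unnamed chromosome 20 row passed the adjusted test (-1.06, adjusted p = 0.0385), and it also passed with the replicate block. When the rows were summed, which was decided after seeing these values, the libraries were at 369, 429 and 501 CPM in Hcy and 413, 533 and 645 CPM in Veh. The sum had a log2 fold change of -0.29 (SE 0.16, 95% CI -0.66 to 0.072, adjusted p = 0.500), with overlapping groups. Whether reads of Mt-nd4 were assigned to the chromosome 20 row cannot be told from counts, and the direction for Mt-nd4 depends on it.

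**Figure D4:**
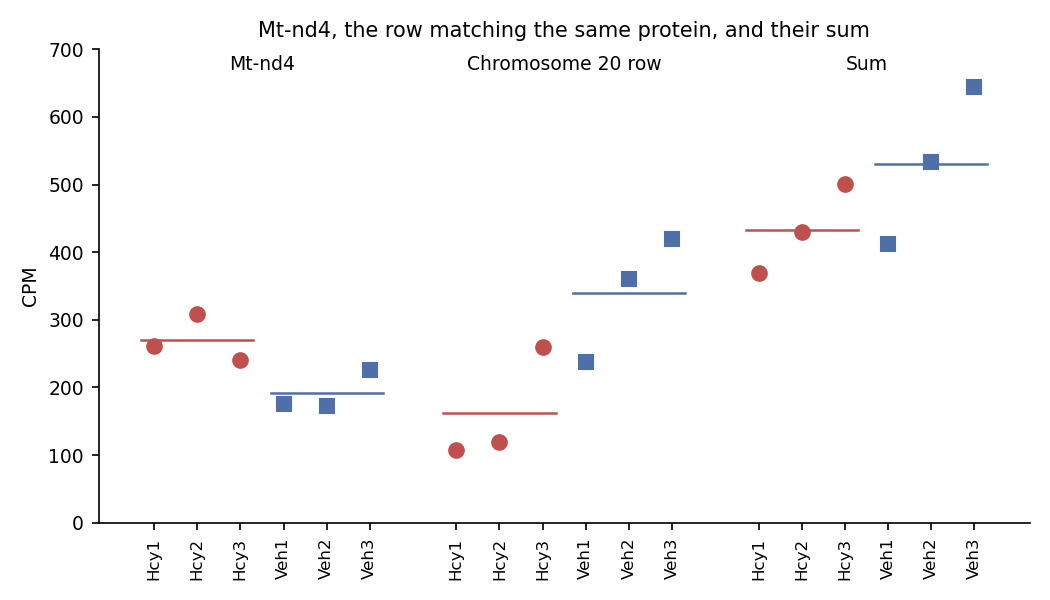
CPM of Mt-nd4, of the unnamed chromosome 20 row with the same protein match, and of their sum in each library (Hcy as red circles, Veh as blue squares, lines marking group means). The Hcy libraries are higher for Mt-nd4, with means lower than Veh for the chromosome 20 row and for the sum.

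In nuclear complex I, 28 of 36 tested rows had lower estimates in Hcy (median -0.11). Ndufb9, an accessory subunit of the membrane arm, was at 85.7, 79.5 and 75.7 CPM in Hcy and 87.1, 89.6 and 113.8 CPM in Veh. Its groups did not overlap, and its log2 fold change of -0.27 (SE 0.11, 95% CI -0.52 to -0.018, adjusted p = 0.328 by edgeR) had the smallest unadjusted p of the nuclear members (0.0384). Ndufb8, another membrane arm subunit, was at 124, 117 and 128 CPM in Hcy and 131, 129 and 175 CPM in Veh (-0.24, adjusted p = 0.455). Without Veh3 the estimates were -0.14 for Ndufb9 and -0.081 for Ndufb8. For both genes Hcy1 or Hcy3 lay close below the lowest Veh library, and Veh3 was far above the other 5. Ndufs1, the largest core subunit, was at 139, 148 and 142 CPM in Hcy and 145, 142 and 131 CPM in Veh (0.040, 95% CI -0.12 to 0.20), with overlapping groups. Ndufaf1, a complex I assembly factor, was at 12.4, 13.7 and 11.6 CPM in Hcy and 14.3, 14.6 and 13.9 CPM in Veh. Its groups did not overlap, at a log2 fold change of -0.19 (adjusted p = 0.550). The other assembly factors had log2 fold changes from -0.13 to 0.044.

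Among the nuclear subunits, complex II, which also works in the citric acid cycle, showed the smallest range of log2 fold changes, over its 4 genes. Sdha, its flavoprotein, was at 178, 174 and 171 CPM in Hcy and 167, 165 and 168 CPM in Veh. These groups did not overlap, but the log2 fold change was 0.065 (95% CI -0.078 to 0.21, adjusted p = 0.736). Sdhc was at 159, 147 and 155 CPM in Hcy and 149, 147 and 178 CPM in Veh (-0.039). Sdhb, with the iron-sulfur clusters, and Sdhd, the other membrane anchor, were at -0.077 and 0.030. In complex III, 8 of 9 rows had lower estimates (median -0.062). Uqcrh was at 184, 176 and 175 CPM in Hcy and 157, 165 and 249 CPM in Veh, a log2 fold change of -0.096 (95% CI -0.45 to 0.26), and Veh1 and Veh2 lay below every Hcy library while Veh3 lay above them. The Rieske protein gene Uqcrfs1 was at -0.062 and the core protein gene Uqcrc2 at -0.00044.

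In complex IV, 10 of 14 tested nuclear rows had lower estimates (median -0.063). Cox5b, a matrix-facing subunit, was the exception with the smallest p, at 126, 105 and 109 CPM in Hcy and 69.5, 107 and 92.3 CPM in Veh. Hcy2 lay below Veh2, and the log2 fold change was 0.33 (SE 0.15, 95% CI -0.0010 to 0.67, adjusted p = 0.374 by edgeR). Each tissue isoform pair was expressed through its widely expressed form. Cox4i1 was at 354, 307 and 321 CPM in Hcy and 275, 286 and 438 CPM in Veh (log2 fold change -0.023, 95% CI -0.39 to 0.35), and without Veh3 its estimate was 0.22. Cox6a1 was at 292, 266 and 252 CPM in Hcy and 253, 258 and 357 CPM in Veh (-0.097). Cox8a was at 108, 103 and 109 CPM in Hcy and 113, 107 and 134 CPM in Veh (-0.14, adjusted p = 0.589, and -0.040 without Veh3). Ndufa4, counted here with complex IV, was at 199, 185 and 178 CPM in Hcy and 170, 174 and 216 CPM in Veh (0.0075, 95% CI -0.22 to 0.24). Cox6b1 was at 174, 136 and 158 CPM in Hcy and 143, 144 and 198 CPM in Veh in its spliced row on chromosome 1 (-0.055), and a row of the same name on chromosome 2 without introns was at 17.6 to 18.2 CPM in Hcy and 15.9 to 23.6 CPM in Veh (-0.072). Cox7a1, the muscle form of subunit 7A, had at most 0.298 CPM in any library, while Cox7a2l2, which carries the protein match of the common form 7A2, was at 128 to 147 CPM in Hcy and 128 to 182 CPM in Veh. The fitted fold change of Cox7a1 is not given, since its levels are close to the floor.

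In complex V, 12 of 16 rows had lower estimates (median -0.060). Atp5mg, subunit g of the membrane part, was at 195, 177 and 189 CPM in Hcy and 190, 204 and 298 CPM in Veh (log2 fold change -0.30, SE 0.15, adjusted p = 0.462). Hcy1 lay above Veh1, and the estimate was -0.074 without Veh3. Atp5f1e, the epsilon subunit, was at 68.2, 70.1 and 69.6 CPM in Hcy and 68.4, 71.4 and 109 CPM in Veh (-0.26, adjusted p = 0.561, and -0.013 without Veh3), so that Veh3 alone lay apart from 5 nearly equal libraries. The catalytic head genes had narrower intervals. Atp5f1b was at 1206, 1160 and 1154 CPM in Hcy and 1089, 1071 and 1261 CPM in Veh (0.041, 95% CI -0.13 to 0.21), and Atp5f1a, the alpha subunit, at 622, 591 and 575 CPM against 580, 548 and 592 CPM (0.057, 95% CI -0.092 to 0.21). Atp5if1, which blocks ATP hydrolysis by the reversed enzyme, was at 119, 111 and 114 CPM in Hcy and 96.8, 95.4 and 140 CPM in Veh (0.055, adjusted p = 0.920). Its Hcy libraries lay between the lower Veh libraries and Veh3.

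In 3 nuclear subunits, single libraries stood far from the rest in a way that did not follow treatment, and these were chosen after their values were seen. The counts of Ndufa1, a small membrane subunit of complex I, were 491, 0 and 627 in Hcy1 to Hcy3 and 620, 1 and 448 in Veh1 to Veh3. Those of Atp5pb, the peripheral stalk subunit b of ATP synthase, were 9, 758 and 850 in Hcy and 12, 594 and 246 in Veh. The low libraries were thus the second of each group for Ndufa1 and the first of each group for Atp5pb. The log2 fold changes, 0.10 for Ndufa1 (95% CI -2.72 to 2.92) and 0.89 for Atp5pb (95% CI -1.69 to 3.47), have intervals that hold large changes in both directions. Ndufa12, another complex I accessory subunit, was at 7.90, 24.0 and 7.46 CPM in Hcy and 6.23, 6.50 and 10.4 CPM in Veh. Its log2 fold change of 0.77 (adjusted p = 0.516 by edgeR) rested on Hcy2 and was -0.0019 without that library. Rows matching the proteins of Ndufa1 and Atp5pb elsewhere held at most 6 and 19 counts in any library. Where the reads of these genes went in the low libraries was not tested.

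**Figure D5:**
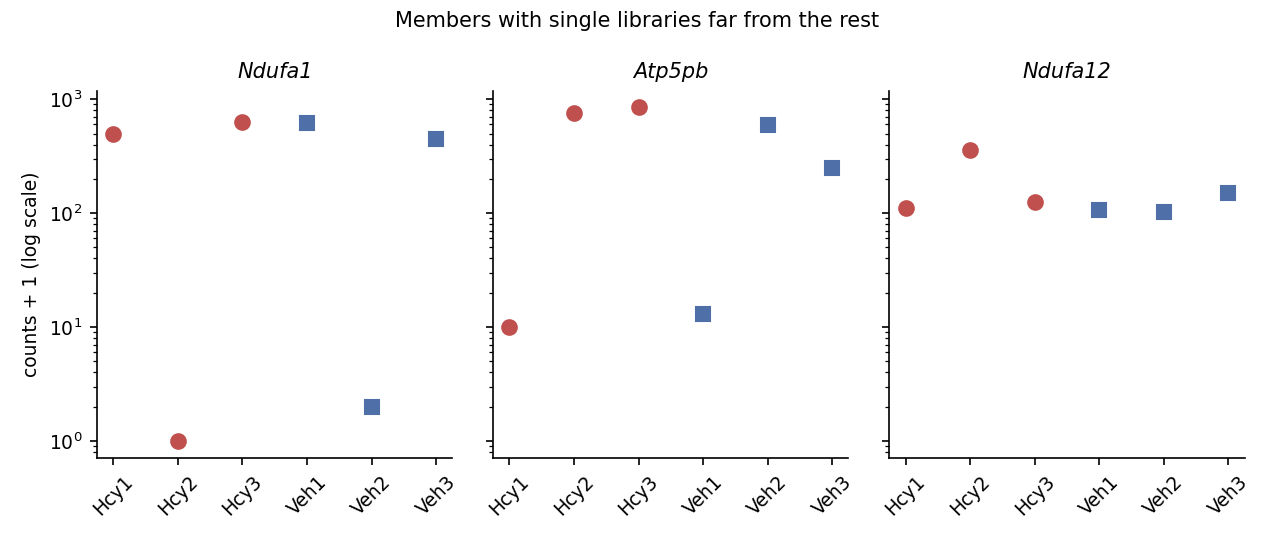
Counts plus 1 of Ndufa1, Atp5pb and Ndufa12 in each library on a log scale, Hcy as circles and Veh as squares. Ndufa1 is at 0 and 1 counts in Hcy2 and Veh2, Atp5pb at 9 and 12 counts in Hcy1 and Veh1, and Ndufa12 is highest in Hcy2.

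Near-identical copies limit several of these values. In the deposited annotation, 54 rows outside the name patterns carried a Swiss-Prot match shared with a member, concerning 37 members' proteins. Of these rows, 29 had 0 counts and 16 were tested. The unnamed row matching Mt-nd4 passed the adjusted test with the replicate block, without Hcy3 and with no count minimum. In the edgeR fit of all libraries with the count minimum and no replicate block, none of the 54 rows had an adjusted p of at most 0.05. For the Atp5md protein, a small membrane subunit of ATP synthase, the larger part of the reads lay in such a row, LOC103693430, at 77.0, 75.6 and 65.5 CPM in Hcy and 75.7, 70.7 and 110 CPM in Veh, while the row named Atp5md held 4.01 to 5.75 CPM. A row matching the complex I subunit Ndufs5, LOC100363268, was at 7.47, 5.78 and 5.73 CPM in Hcy and 10.3, 12.9 and 21.8 CPM in Veh. Its groups did not overlap, and its log2 fold change was -1.25 (SE 0.27, adjusted p = 0.0505 by edgeR, 0.000197 by DESeq2). Ndufs5 itself was at 92.4, 77.5 and 80.5 CPM in Hcy and 61.5, 70.1 and 96.9 CPM in Veh (0.13, adjusted p = 0.792). Without Veh3 the estimate for Ndufs5 was 0.34 (adjusted p = 0.0542 by edgeR). How reads that fit several copies were counted is not given in the sources used here, so the values of these rows are uncertain.

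Other genes of the mitochondrial energy system were taken from lists, whose counts are to be read against all genes tested, of which 13.4% passed the unadjusted p and 53.1% had lower estimates in Hcy. Of 46 tested assembly factors outside the name patterns, none passed an adjusted p of at most 0.05 (edgeR), 5 passed the unadjusted p and 35 had lower estimates in Hcy. The smallest p was that of Lyrm2, with 18.8 ± 1.46 CPM in Hcy against 23.4 ± 1.29 CPM (SD, n = 3) in Veh (log2 fold change -0.31, adjusted p = 0.201 by edgeR). Of 21 electron carrier and coenzyme Q genes, none passed the adjusted test, 3 passed the unadjusted p and 15 had lower estimates, led by Coq10b, a coenzyme Q binding protein (-0.24, adjusted p = 0.175). Of 30 genes of mitochondrial DNA transcription and RNA processing, none passed the adjusted test, 2 passed the unadjusted p and 20 had lower estimates, led by Fastkd1 (-0.42, adjusted p = 0.153). Of 16 tested regulators, none passed either p, and Myc had the smallest (-0.10, adjusted p = 0.620). The coactivator Ppargc1a was at or below 1 count in every library, and the factors whose motifs were searched, Nrf1, Gabpa, Esrra and Yy1, had log2 fold changes of -0.014, 0.043, -0.11 and -0.016.

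In the citric acid cycle, 1 of 18 tested genes passed the adjusted test, against 341 of all 14603 genes tested (2.34%). Idh2, the NADP-dependent mitochondrial isocitrate dehydrogenase, rose from 31.7 ± 1.52 CPM in Veh to 43.8 ± 2.27 CPM in Hcy (SD, n = 3), a log2 fold change of 0.47 (SE 0.082, adjusted p = 0.0229 by edgeR). Its counts were 622, 678 and 691 in Hcy and 512, 492 and 482 in Veh, and the groups did not overlap. The call was lost without any one of Hcy1, Hcy2, Hcy3, Veh1 or Veh2 (adjusted p of 0.0810 to 0.118) and held without Veh3 (adjusted p = 0.00408). The other 17 did not pass, with 9 higher and 8 lower, and the list's median was 0.016 against -0.015 for all genes.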

How the data were processed

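Poly(A)-selected RNA of 6 rBMEC libraries (3 Hcy, 3 Veh) was sequenced by the authors, who deposited raw counts per gene with gene positions and lengths. The submitters' processing notes name fastp, HISAT2 2.2.1, StringTie 2.2.3, Cufflinks, featureCounts 2.0.6, DESeq2 1.42.0 and the builds mRatBN7.2 and rn7. The table itself names no build, so positions are given as listed. A table of the authors' own comparison (a normalized signal per library, log2 fold changes and p-values) was not used.

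Genes with at least 10 counts over the 6 libraries were tested with edgeR 4.0.16 (R 4.3.3) by the quasi-likelihood test, with TMM scaling (factors 0.977 to 1.02) and treatment as the only term. P-values were Benjamini-Hochberg adjusted over all 14603 genes. CPM are TMM-scaled, TPM were computed from the counts and listed lengths, and log2 fold changes are Hcy over Veh. SE and 95% intervals came from the quasi-likelihood F statistic. On simulated counts for 14431 genes with 200 changed by 2 log2 units, this test recovered 199 and called 3 others. The simulation gave every gene the same dispersion and held no library shifted like Veh3. It therefore cannot tell how often changes as small as those of the members would be called. Alternatives were DESeq2 1.42.0, other scalings, count minimums, the replicate block and leaving out each library. P-values measure the spread between these libraries.

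Members, lists and tests were chosen with earlier results of these data known. Genes were named by rule: all mitochondrial members, any member with an adjusted p of at most 0.05, the 5 nuclear members with the smallest p in each direction, the highest gene per length in each complex, the tissue isoform pairs, and from each other list the genes passing the adjusted p or else that with the smallest p. The remaining named genes were chosen after their values were seen. No protein sequences were used. Some results are not reported here.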

Additional observations from a re-analysis of the deposited data

How the results depend on the processing

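The number of genes called by both thresholds was 71 and became 109 with no count minimum and 39 to 112 when 1 library was left out (39, 39, 46, 47 and 112 without Hcy1, Hcy2, Hcy3, Veh2 and Veh3). By the adjusted p alone it was 341 and became 604 with DESeq2, 80 to 151 without any one of the libraries other than Veh3, and 957 without Veh3. Members called by the adjusted p went from 0 to 1 with DESeq2, 1 with no count minimum (Mt-nd4 both times) and 0 to 3 when 1 library was left out. Mt-nd4 turned to -0.29 when summed with its chromosome 20 match and otherwise kept its direction (0.39 to 0.64 when 1 library was left out). Cox4i1 turned to 0.0079 with the replicate block, and Uqcrc2 to 0.0028 with DESeq2, 0.0026 with its size factors and 0.0029 with library totals alone. Leaving out 1 library turned the direction of other named genes, whose log2 fold changes then ranged over Atp5if1 -0.042 to 0.26, Mt-nd2 -0.23 to 0.10, Mt-nd3 -0.17 to 0.15, Mt-nd4l -0.26 to 0.025, Mt-nd5 -0.095 to 0.035, Mt-nd6 -0.064 to 0.23, Mt-cyb -0.038 to 0.11, Mt-co1 -0.069 to 0.052, Ndufa1 -0.49 to 0.68, Ndufa12 -0.0019 to 1.06, Ndufb3 -0.22 to 0.29, Ndufs1 -0.0019 to 0.072, Sdhb -0.15 to 0.069, Sdhc -0.091 to 0.054, Sdhd -0.024 to 0.10, Uqcrc1 -0.17 to 0.059, Uqcrc2 -0.032 to 0.040, Uqcrfs1 -0.13 to 0.031, Uqcrh -0.22 to 0.14, Cox4i1 -0.14 to 0.22, Cox6a1 -0.18 to 0.082, Cox6b1 chromosome 1 -0.14 to 0.12, Cox6b1 chromosome 2 -0.19 to 0.11, Cox7a2l2 -0.22 to 0.044, Ndufa4 -0.054 to 0.12, Atp5f1b -0.0039 to 0.12, Atp5md -0.033 to 0.16, Atp5me -0.11 to 0.12, Atp5pf -0.14 to 0.13, Yy1 -0.13 to 0.11, Gabpa -0.0099 to 0.10 and Nrf1 -0.082 to 0.033. With 1 library left out, the median log2 fold change ranged from -0.17 to 0.079 over nuclear subunits and from -0.23 to 0.021 over mitochondrial genes, and the difference in the mitochondrial share from -0.39 to 0.027 percentage points. Each of these was above 0 only without Veh3, and under the other scalings and count minimums the medians kept their sign.

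Libraries with the same replicate number deviated with correlations of 0.024, 0.17 and 0.058 for numbers 1, 2 and 3 (across 12296 genes), and Hcy2 and Hcy3 correlated best with their own number while Hcy1 correlated best with Veh3, so the numbers were not taken to pair the samples. With the replicate block, 298 genes passed the adjusted p, 82 passed both thresholds and 0 members passed. The unnamed chromosome 20 row matching Mt-nd4 had an adjusted p of 0.0134 with the replicate block and 0.0385 with no count minimum. Whether depth limited the members at or near the floor of 3 counts was not tested. The causes of these shifts were not tested.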

Other observations

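Libraries were compared for genes missing from just a pair of them, as with Ndufa1 and Atp5pb. A gene counted as missing from a pair of 1 Hcy and 1 Veh library when both were under 1/8 of the mean of the other 4 libraries, which had to average at least 10 CPM. Each of those 4 libraries also had to hold at least 1 CPM. The pairs with the same replicate number held 3 (Atp5pb, LOC100910575 and Yif1b), 1 (Ndufa1) and 2 (Mff and LOC100910308) such genes for numbers 1, 2 and 3. The 6 pairs with different numbers held 0 or 2 such genes each, and Atp5pb and Ndufa1 were the only members among all of them. LOC679739, a row outside the name patterns that matches the complex I subunit Ndufs6, had 3, 0 and 0 counts in Hcy1 to Hcy3 and 2, 296 and 48 counts in Veh1 to Veh3. The row is listed at or below 3 counts in 4 of the 6 libraries, and its fitted fold change is not given.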
